A study of Mus musculus with 3 samples.

Results

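The subject is the long CpG islands of the mouse genome, represented on a tiling microarray by many probes, and the histone mark H3K27me3 along them in colonic epithelium. Autosomal probes were ordered by start position and joined while the next start lay within 500 bp, and regions of at least 12 probes were kept. This gave 1253 long islands among 14628 autosomal regions of any number of probes, which is 9.13% of the 13729 regions with at least 3 probes. They held 19144 of the 94499 autosomal probes (20.3%), with 12 to 42 probes per island (median 14) over 1025 to 5401 bp (median 1705 bp). The 12476 regions of 3 to 11 probes, which served for comparison, had a median of 6 probes and 626 bp, and 12443 of them had at least 3 usable probes. The median distance from one probe start to the next was 113 bp in long islands and 115 bp in the shorter regions.

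Chromatin came from crypts isolated from the colon of male BALB/c mice and fragmented by sonication. Each of the 3 groups was a single pool of 3 mice on a single array: untreated mice at 7 weeks of age, untreated mice at 23 weeks, and 23-week-old mice that had received 2% DSS for 1 week from the age of 7 weeks. DSS, dextran sulfate sodium, is a polymer that injures the colonic epithelium and induces colitis. The array compared DNA immunoprecipitated with an antibody against H3K27me3 (red, Cy5) with whole-cell extract, the input (green, Cy3), in the same dye orientation for all groups. A level below is the log2 ratio of immunoprecipitate over input relative to the median probe of that array, and the level of an island is the median of its probes. An island at 1 or more, a 2-fold enrichment over the median probe, is called marked. Because a group is 1 array, differences between groups have neither a replicate error nor a test. The ± after an island's level is the SD over its probes within a single hybridisation, and intervals on shares are Wilson 95% intervals that cover counting error over regions only. The labelled epithelium could not be checked against marker genes, because gene names are not paired with probes in the files.

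CpG islands are stretches rich in CG dinucleotides that overlap the promoters of many genes and are mostly free of DNA methylation. The Polycomb repressive complex PRC2 trimethylates lysine 27 of histone H3 at a subset of them, chiefly those of developmental regulators that are silent in the tissue, and it is recruited to islands that are not being transcribed. A second Polycomb complex, PRC1, binds the mark, and the mark can spread along the island and to its flanks. Islands of active genes usually carry H3K4 methylation in its place. In aged or inflamed colon, islands that carry H3K27me3 have attracted interest because such islands often gain DNA methylation.

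On every array the long islands formed a population with the mark and a population without it. Counted in steps of 0.25, the levels of untreated mice at 7 weeks peaked between -0.50 and -0.25 (155 islands) and again between 1.5 and 1.75 (110 islands), with 36 islands in the least filled step between 0.50 and 0.75. In untreated mice at 23 weeks the peaks lay between -0.75 and -0.50 (111 islands) and between 2.00 and 2.25 (115 islands), and the trough between 0.50 and 0.75 held 28 islands. After DSS the peaks lay closer together, between -0.50 and -0.25 (177 islands) and between 1.00 and 1.25 (124 islands), and the trough was shallower and lower, with 54 islands between 0.25 and 0.50. The levels ranged from -2.63 to 3.63 in the younger mice, from -2.76 to 3.39 in untreated mice of 23 weeks and from -2.67 to 2.47 with DSS. The distance between the populations followed the spread of the arrays as a whole: over all probes, the interquartile range was widest in untreated mice at 23 weeks (2.54), intermediate in the younger mice (1.97) and narrowest after DSS (1.55).

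**Figure D1:**
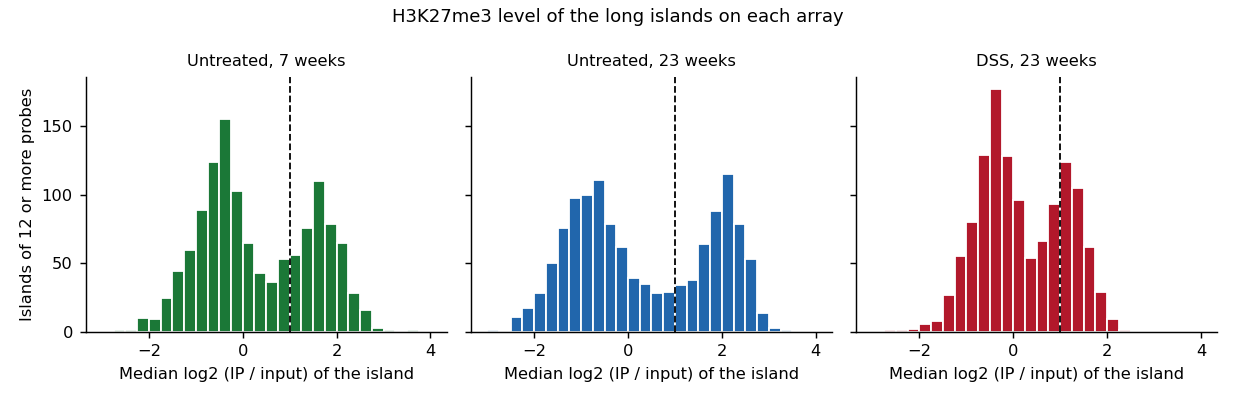
Number of long islands (y axis) by level, the median log2 ratio of immunoprecipitate over input of the island's probes (x axis, steps of 0.25), on each of the 3 arrays, for the long islands. The dashed line marks the threshold of 1. Both populations are visible on every array, and after DSS the line passes through the upper one, whose peak lies between 1.00 and 1.25.

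Long islands were marked more often than shorter regions on each array. At 7 weeks 435 long islands were marked (34.7%, interval 32.1% to 37.4%), against 19% of regions of 3 to 11 probes and 20.4% of all 13696 regions with a level. At 23 weeks 489 were marked (39.0%, 36.4% to 41.8%), against 24.1% of the shorter regions and 25.5% of all regions. After DSS 330 were marked (26.3%, 24.0% to 28.8%), against 12.8% and 14%. Counted probe by probe, 34.1%, 41.4% and 25.6% of probes in long islands reached 1, in the order 7 weeks, 23 weeks and DSS, which is kept below. In the shorter regions these shares were 20%, 25.9% and 13.9%. The marked long islands had a median level of 1.68, 2.04 and 1.32, and the unmarked ones -0.43, -0.75 and -0.28. Strong depletion went the other way: 12%, 22.4% and 7.98% of long islands lay at -1 or below, against 23.7%, 32.6% and 18.0% of shorter regions. The outermost probes, which were low in unmarked regions, made up 2492 of 19012 usable probes in long islands and 24812 of 73447 in shorter regions. Probes inside the outermost and the next had medians of -0.30, -0.49 and -0.24 in unmarked long islands. In unmarked shorter regions these were -0.27, -0.45 and -0.22. The part of this make-up in the shares was not tested.

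Much of the difference between the arrays in the number of marked islands depended on where the threshold fell. When the threshold was placed at the trough of each array (0.625, 0.625 and 0.375), a choice made after the levels were seen, 40.7% (38.0% to 43.4%), 42.5% (39.7% to 45.2%) and 41.7% (39.0% to 44.5%) of long islands were in the upper population. The same thresholds put 25.2%, 28.6% and 27.3% of the shorter regions above them. A threshold at an array's own trough follows the upper population of that array. It would therefore also take up a real shift shared by the marked islands, and like shares do not tell whether there was such a shift. Between the trough and 1 lay 75 long islands in the younger mice, 43 in the older untreated mice and 193 with DSS. By this threshold 493 long islands (39.3%) were in the upper population on all 3 arrays and 702 (56.0%) on none, so that 95.4% had the same state in every group. Of the shorter regions 23.3% were in the upper population on all 3 arrays and 69.3% on none, and 92.6% had the same state throughout. The remaining 58 long islands were split into 28 above on 2 arrays, 4 above at 7 weeks only, 11 at 23 weeks only and 15 after DSS only. When the arrays were instead scaled to a common interquartile range and the threshold of 1 was kept, 35.4%, 36.2% and 32.9% of long islands were marked, against 19.4%, 20.8% and 18.1% of the shorter regions and 20.9%, 22.2% and 19.5% of all regions.

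The share of marked islands climbed with the number of tiled probes among the long islands, while it did not do so among the shorter regions. Of the 730 islands of 12 to 14 probes, 28.4%, 32.9% and 20.7% were marked. Of the 374 islands of 15 to 19 probes these shares were 41.4%, 46.3% and 32.4%, and of the 149 islands of 20 to 42 probes they were 49.0%, 51.0% and 38.9%. Regions of 3 to 4 probes (20.2%, 26.2% and 14.4%) and of 9 to 11 probes (21.4%, 25% and 13.2%) were nearly alike, and regions of 7 to 8 probes were lowest on each array (16.7% and 21.2% in the untreated mice). Just outside the rule, the 441 regions of 11 probes were marked in 22.7%, 25.4% and 15.6%, and just inside it, the 316 islands of 12 probes in 27.8%, 31.6% and 20.6%. The intervals of these neighbours overlapped on each array.

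**Figure D2:**
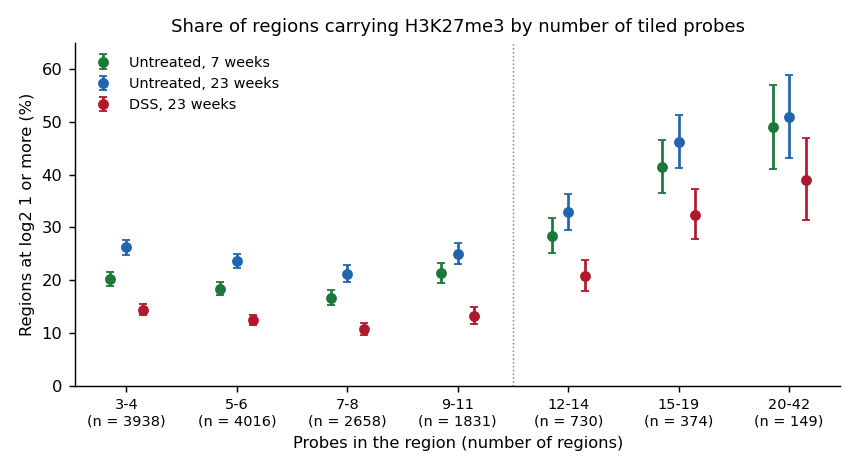
Share of regions at a log2 level of 1 or more (y axis, percent) by the number of probes in the region (x axis), for each of the 3 arrays. Points are shares, bars are Wilson 95% intervals for counting error over regions, and the dotted line separates the long islands from the shorter regions. The share is lowest at 7 to 8 probes and highest at 20 to 42 probes on all 3 arrays.

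The same long islands carried the mark in the 3 pools. The 489 islands marked at 23 weeks without DSS included all 435 of the 7-week pool and all 330 of the DSS pool, and 328 of those 330 were also among the 435. Hence 328 islands (26.2%) carried the mark on each of the 3 arrays, 109 on 2, 52 on 1 (at 23 weeks in each case) and 764 (61.0%) on none. Among the shorter regions 12.2% had the mark on all arrays and 75.6% on none. Across long islands, which are not replicates, levels correlated between arrays at r = 0.979 (7 against 23 weeks), 0.974 (7 weeks against DSS) and 0.964 (23 weeks against DSS), over 1253 islands of shared probes.

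The 5 islands with most probes showed both states. The longest, chr11:120048885-120054285 (42 probes over 5401 bp), was unmarked, with -0.99 ± 1.41 in the younger mice, -1.21 ± 1.17 in untreated mice of 23 weeks and -0.57 ± 1.02 with DSS. At most 2.4% of its probes reached 1 on any array, and 4, 6 and 7 of them had an immunoprecipitate signal near background, so that the level of those probes is only an upper bound. The next, chr8:95244736-95250031 (41 probes over 5296 bp), was marked along most of its length, with 1.82 ± 1.07, 2.32 ± 0.77 and 1.36 ± 0.76. Of its probes 80.5%, 97.6% and 73.2% reached 1. chr5:33747202-33752451 (40 probes) had 2.06 ± 1.03, 2.49 ± 0.76 and 1.56 ± 0.81. chr14:20773443-20778326 (37 probes) had 1.66 ± 0.65, 2.06 ± 0.58 and 1.33 ± 0.50. chr5:111656748-111660873 (37 probes) had 2.01 ± 1.07, 2.15 ± 0.75 and 1.28 ± 0.73. All 4 marked islands thus had the same order, highest at 23 weeks and lowest after DSS, which was also the order of the arrays' spread. Positions are those stated in the array files, which name no genome build, and they are therefore given without gene, exon or intron.

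The highest level on each array belonged to chr5:140160346-140161853 (12 probes over 1508 bp), with 3.63 ± 1.74, 3.39 ± 1.06 and 2.47 ± 1.16. The next islands are given in the order of their mean over the 3 arrays, which is not their order on each array. chr13:31632967-31634702 (13 probes) had 3.03 ± 1.22, 2.97 ± 0.86 and 2.08 ± 0.83. chr2:31457239-31459342 (16 usable probes) had 2.79 ± 1.06, 2.91 ± 0.61 and 2.21 ± 0.76, and every probe of it reached 1 on all 3 arrays. chr7:70153865-70155319 (13 probes) had 2.69 ± 0.63, 2.87 ± 0.46 and 2.17 ± 0.56.

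The 4 islands with the lowest mean over the 3 arrays were depleted on each of them. chr6:120329350-120330599 (12 probes) had -2.35 ± 1.47, -2.38 ± 1.47 and -2.03 ± 1.33, with 1, 2 and 2 probes not well above background. chr14:66668365-66669725 (10 usable probes) had -2.20 ± 1.33, -2.48 ± 1.09 and -2.67 ± 1.51, with 0, 1 and 0 such probes. chr5:115033765-115035786 (14 usable probes) had -2.14 ± 1.70, -2.76 ± 1.45 and -2.18 ± 1.47, with 1, 4 and 4. chr7:29940341-29942519 (13 usable probes) had -2.18 ± 0.71, -2.21 ± 0.49 and -2.36 ± 0.74, with 0, 0 and 2. No probe of these 4 islands reached 1 on any array. Over all long islands 1.69%, 3.5% and 2.82% of probes had an immunoprecipitate signal not well above background.

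The share of an island's probes that reached 1 varied between islands and arrays. At 7 weeks 704 long islands had under 20% of their probes at 1 or more, 353 had 20% to 80% and 196 had over 80%. At 23 weeks these classes held 674, 185 and 394 islands, and after DSS 767, 425 and 61. Every probe reached 1 in 31, 162 and 7 islands, and no probe did in 348, 285 and 515. In shorter regions, which have fewer probes to pass, every probe reached 1 in 5.32%, 13.4% and 2.36%, against 2.47%, 12.9% and 0.559% of long islands. Over 80% of probes reached it in 7.96%, 16.4% and 3.57% of shorter regions, against 15.6%, 31.4% and 4.87% of long islands. The same class was found on all 3 arrays for 657 islands under 20%, for 90 islands of 20% to 80% and for 56 islands over 80%. The class over 80% was therefore the one that moved most with the spread of the array.

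The pattern along an island was repeated from array to array. After the island's own level was subtracted, the 19012 usable probes of long islands correlated between arrays at r = 0.875 (7 against 23 weeks), 0.915 (7 weeks against DSS) and 0.855 (23 weeks against DSS). The probe itself is shared in these pairs: the log2 input intensity, treated in the same way, correlated at 0.914, 0.980 and 0.911. The deviations had an SD of 1.08, 1.03 and 0.87 on the 3 arrays, and their difference between arrays an SD of 0.53, 0.45 and 0.53. Most of the variation along an island was thus common to the arrays, and how much of it is a property of the probe rather than of the chromatin cannot be told apart with this design.

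Edges were lower than centres in unmarked islands, whereas in marked islands the outer and middle probes were nearly level. The probes of each island were divided in order into 3 parts of equal number, with any remainder in the middle. The median of the outer parts, the edges, was compared with that of the middle part, the centre. Over all long islands the median of edge minus centre was -0.17, -0.10 and -0.12, and the edge was above the centre in 40.8% (38.1% to 43.5%), 45% (42.3% to 47.8%) and 41.4% (38.7% to 44.2%). In the 764 islands marked on no array the difference was -0.27, -0.23 and -0.20, with the edge above in 36.8%, 40.8% and 36.1%. In the 328 islands marked on all 3 arrays it was -0.06, 0.04 and 0.01, with the edge above in 47.9%, 53.4% and 50.9%, and each of these intervals held 50%. The shorter regions had differences of -0.30, -0.19 and -0.22 over all, of -0.44, -0.33 and -0.35 where marked on no array, and of 0.05, 0.08 and 0.08 where marked on all 3. These differences depended on the normalisation. With loess, which follows intensity, the median over all long islands was only -0.03, -0.02 and -0.03, with the edge above in 47.8%, 48.1% and 47.1%. Over all shorter regions it was then -0.04, -0.03 and -0.04.

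The end probes stood apart from the rest in unmarked islands. The outermost probes of unmarked long islands had a median of -1.17, -1.35 and -0.97, the next probe inward -0.49, -0.76 and -0.38, and all others -0.30, -0.49 and -0.24. In the unmarked shorter regions the outermost probes had -1.03, -1.18 and -0.85. At equal distance from an end, the gap between unmarked long islands and shorter regions varied. Within 100 bp, long islands had -0.58, -0.90 and -0.50 and shorter regions -0.46, -0.65 and -0.36. At 200 to 300 bp the values were -0.35, -0.53 and -0.28 against -0.32, -0.50 and -0.26, and at 600 to 800 bp -0.26, -0.43 and -0.23 against -0.11, -0.23 and -0.10. Long islands were the lower at these distances, but not at 100 to 200 bp. There they had -0.384, -0.612 and -0.328, against -0.418, -0.629 and -0.333 in shorter regions. At 7 weeks, unmarked long islands lay at -0.26 at 400 to 600 bp and at -0.50 beyond 1000 bp, where only 136 islands had probes. In long islands marked on all 3 arrays the outermost probes (1.84, 2.24 and 1.49) were about as high as the inner ones (1.87, 2.24 and 1.35), and the next probes (1.73, 2.16 and 1.29) were slightly lower. Over probes of any length, the inner minus outermost difference in them was 0.03, -0.01 and -0.14.

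**Figure D3:**
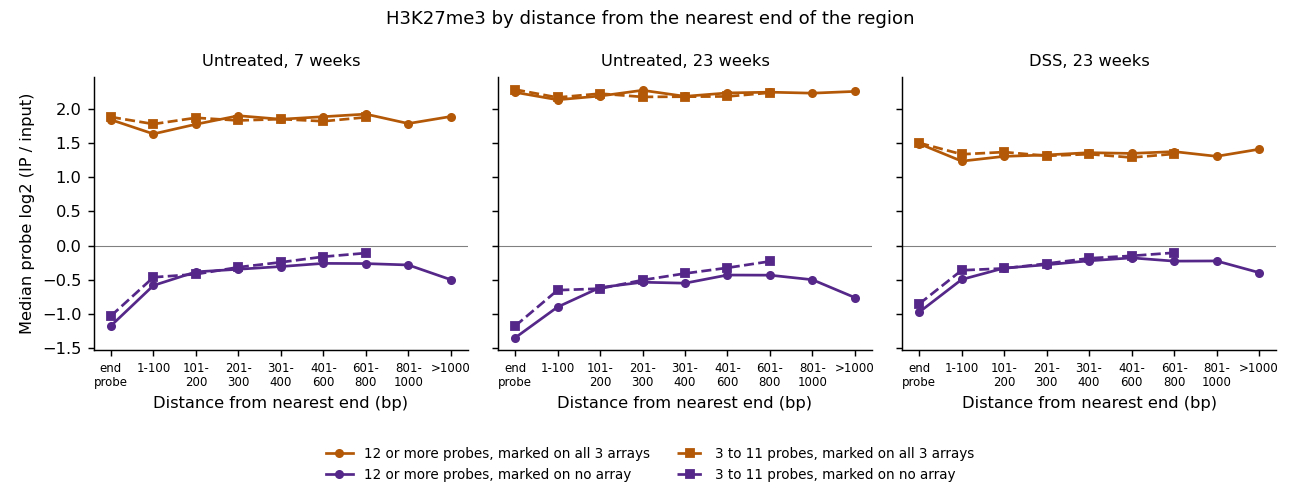
Median probe log2 ratio of immunoprecipitate over input (y axis) by distance from the nearest end of the region (x axis, bp, the outermost probe shown apart), on each array. Colours separate regions marked on all 3 arrays from those marked on no array. Solid lines show long islands and dashed lines regions of 3 to 11 probes. Unmarked regions are lowest at the end, with -1.17 at 7 weeks in long islands, and long islands marked on all arrays go from 1.84 at the end to 1.63 within 100 bp at 7 weeks and from 1.49 to 1.23 after DSS.

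Probe length and signal moved with the position in the island. Of the outermost probes in long islands 49.5% were 45 bases long and the others longer, against 80.4% of the next and 81.4% of the inner probes. Longer probes were lower than 45-base probes in unmarked islands and higher in marked ones at every position. Among 45-base probes of unmarked islands the outermost had a median of -0.50, -0.69 and -0.41 and the inner -0.14, -0.27 and -0.10. Among longer probes the outermost had -2.11, -1.95 and -1.70 and the inner -1.66, -1.82 and -1.41. The difference between outermost and inner probes of unmarked islands was thus 0.36, 0.41 and 0.32 for 45-base probes, against 0.88, 0.86 and 0.74 over probes of any length. In islands marked on all 3 arrays, 45-base probes had 1.71, 2.14 and 1.26 at the end and 1.74, 2.15 and 1.23 inside, while longer probes had 2.02, 2.33 and 1.75 at the end and 2.36, 2.55 and 1.90 inside. Longer probes were thus lower at the end of marked islands too, by 0.34, 0.22 and 0.15, where 45-base probes were level.

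**Figure D4:**
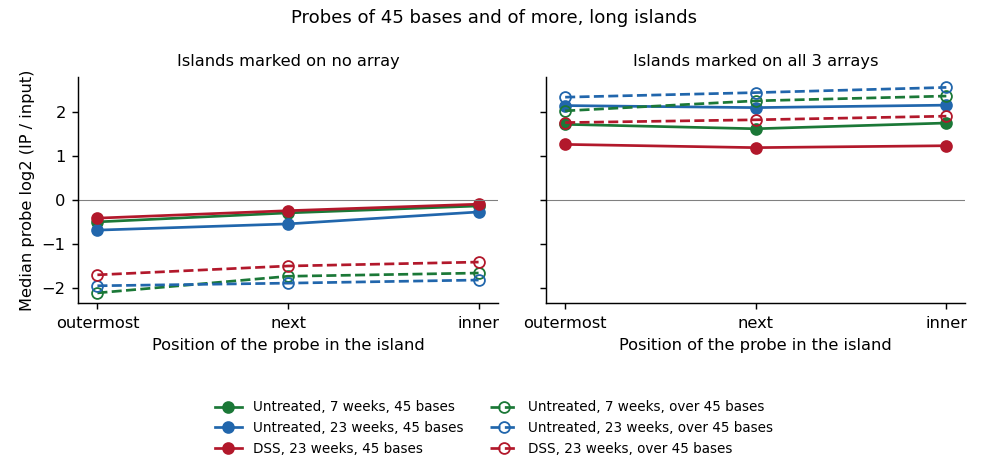
Median probe log2 ratio of immunoprecipitate over input (y axis) of the outermost, next and inner probes of long islands (x axis), for islands marked on no array (left) and on all 3 arrays (right). Solid lines with filled circles are probes of 45 bases and dashed lines with open circles longer probes, in the colour of each array. Longer probes lie below 45-base probes in unmarked islands, near -2 against -0.5 at the end, and above them in marked islands.

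The input was also lower at the edges of unmarked islands. There the edge minus centre difference of log2 input intensity had a median of -0.29, -0.11 and -0.27, and that of the immunoprecipitate -0.55, -0.39 and -0.51. In islands marked on all 3 arrays these were 0.01, -0.02 and -0.04 for the input and -0.07, -0.08 and -0.02 for the immunoprecipitate. Of the outermost probes in unmarked islands 15.7% were not well above background on at least 1 array, against 6.14% of the inner probes. With the straight-line trend on probe length subtracted, the median of edge minus centre over all long islands was -0.12, -0.07 and -0.08, and without probes near background it was -0.15, -0.09 and -0.10. Longer probes were lower in unmarked islands and higher in marked ones. A single line cannot follow both, so its subtraction does not show what remains without the part of length. The part of input intensity in the difference was not tested.

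A minority of long islands had a clear contrast between edge and centre. On all 3 arrays the edge was at least 1 above the centre in 26 islands (2.08%) and at least 1 below it in 71 (5.67%), against 3.38% and 13.7% of the shorter regions. These shares are not like for like. Shorter regions had a median of 6 probes against 14, so their parts hold fewer probes and the outermost probes weigh more. The effect of probe number was not tested. The contrast of an island was carried from array to array, with correlations of edge minus centre of 0.86, 0.89 and 0.83 over 1253 islands. The 4 islands with the centre most above the edges were all unmarked by their median. In chr13:48557526-48558937 (12 probes) the centre had 0.50, 1.29 and 1.04, and the edges -1.47, -1.97 and -0.94. In chr8:83909649-83911020 (14 probes) the centre had 0.00, -0.16 and 0.05 and the edges -2.06, -2.95 and -1.73. chr5:122096819-122098230 (13 probes) had 0.34, 0.51 and 0.25 in the centre and -2.24, -2.11 and -1.17 at the edges. chr16:8745129-8747202 (17 probes) had 0.04, 0.23 and 0.38 in the centre and -2.08, -2.33 and -1.37 at the edges. Only the first of these 4 had a centre at 1 or more, and it had it on the arrays of 23-week-old mice.

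The opposite shape, edges above the centre, was seen in marked and unmarked islands among the 4 with the largest contrast. chr5:140160346-140161853, the island with the highest level, had edges of 4.19, 3.70 and 2.62 around a centre of 1.26, 1.81 and 0.98. The other 3 islands named for this contrast were unmarked and had a depleted middle. chr11:50220251-50222011 (17 probes) had -0.57, -0.54 and -0.56 at the edges and -3.34, -4.17 and -2.70 in the centre, and 3, 4 and 3 of its probes were not well above background. chr16:4794545-4796296 (13 probes) had -0.87, -1.19 and -0.64 at the edges and -3.60, -4.07 and -1.99 in the centre. chr5:114641029-114642199 (12 probes) had 0.12, -0.22 and 0.15 at the edges and -2.76, -1.95 and -1.40 in the centre. Of the probes of these last islands, 1 to 3 and 1 to 2 per array were not well above background.

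Islands could also be uneven from one end to the other. This measure is unlike edge minus centre, because the edge pools both outer parts while an end is a single part with fewer probes. The counts of islands by these measures are therefore not compared. The first and the last part differed by at least 1 on all 3 arrays in 200 long islands (16.0%, 14% to 18.1%), with the first part higher in 100 and the last in 100, against 25.5% of the shorter regions. The parts of shorter regions hold fewer probes, so these shares too are not like for like. The 4 islands with the largest difference contrasted a depleted end with an end near 0. In chr10:79257164-79258524 (12 probes) the first part had -3.47, -3.36 and -3.35 and the last 0.44, 0.66 and 0.59. In chr19:12861733-12863476 (13 probes) the first had 0.56, 0.74 and 0.33 and the last -3.69, -3.19 and -3.35. chr1:181639529-181640818 (12 probes) had 0.06, -0.46 and 0.28 in the first and -3.52, -3.53 and -3.17 in the last. chr11:69487385-69488935 (12 probes) had -0.13, -0.37 and -0.10 in the first and -3.41, -4.03 and -2.82 in the last. Each of these islands had 2 to 4 probes not well above background on each array.

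A step from a marked outer part to one below 0, on every array, was rare. This rule is strict and does not count every boundary of the mark. On all 3 arrays 90 long islands (7.18%), and 7.93% of the shorter regions, had 20% to 80% of their probes at 1 or more. In only 6 long islands (0.479%), and in 0.490% of the shorter regions, 1 outer part was marked and the other lay below 0 on all 3 arrays. These islands were picked out after their values were seen. The widest contrast was in chr18:75944808-75946812 (14 usable probes), whose first part had -0.64, -0.23 and -0.63 and whose last part had 2.53, 2.28 and 1.73, with 1.01, 0.99 and 0.61 between them. In chr12:84375483-84377648 (17 probes) the level went from 1.60, 1.71 and 1.14 to -0.82, -0.78 and -0.77. In chr15:100905677-100907162 (13 probes) it went from 2.09, 1.87 and 1.16 to -0.21, -0.38 and -0.29, and in chr4:125757570-125759007 (14 probes) from 2.10, 1.95 and 1.08 to -0.23, -0.44 and -0.14. chr13:91934519-91936533 (14 probes) went from -0.99, -0.41 and -0.28 to 1.43, 1.62 and 1.15, and chr16:90718886-90720421 (13 probes) from -0.39, -0.54 and -0.37 to 1.31, 1.38 and 1.00. No probe of these 6 islands was at background in the immunoprecipitate on any array, so the low side was measured.

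**Figure D5:**
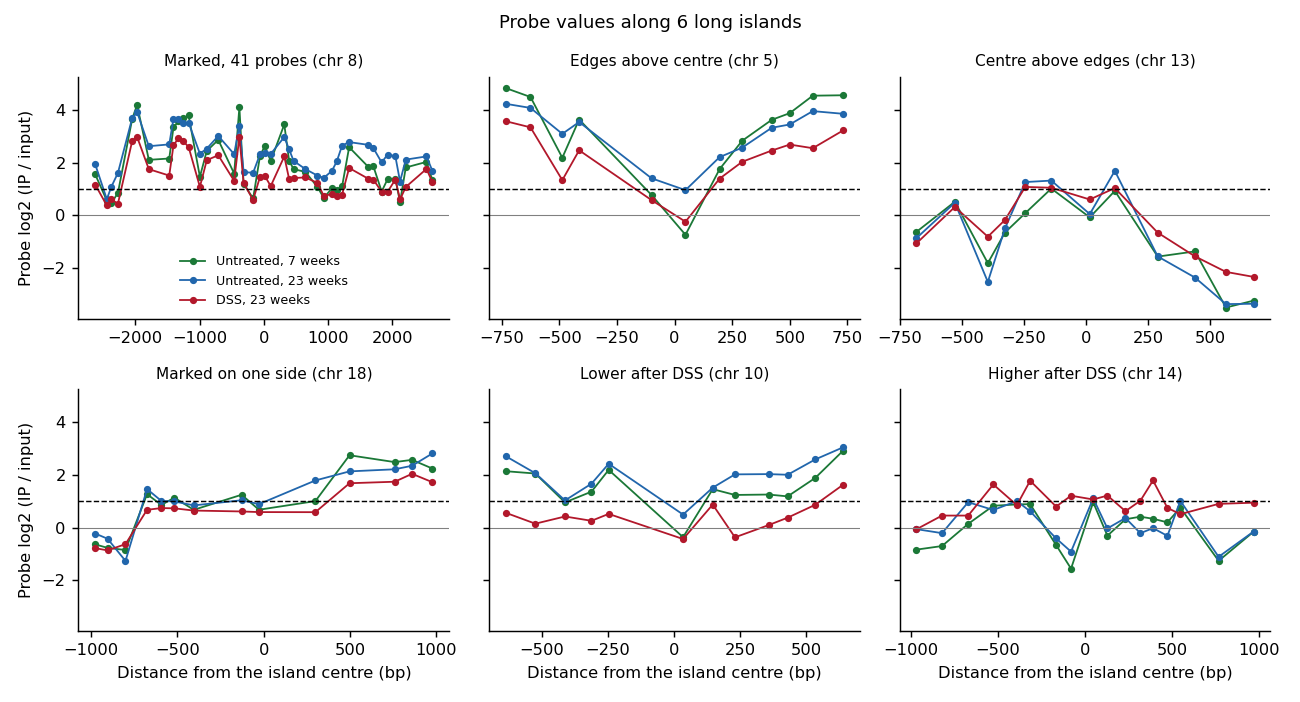
Probe log2 ratio of immunoprecipitate over input (y axis) against the distance from the island's centre (x axis, bp) for 6 long islands named in the text, with 1 line per array. The dashed line is the threshold of 1. The shapes repeat between arrays, except in the lower middle and lower right panels, where the DSS array departs: its island on chromosome 10 lies at 0.40 against 2.03 in untreated mice at 23 weeks, and the island on chromosome 14 at 0.90 against -0.03.

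Marked long islands lay close to other islands more often than unmarked ones. Of the 328 islands marked on all 3 arrays 31.4% (26.6% to 36.6%) had another region of at least 3 probes within 5 kb, against 11.8% (9.68% to 14.3%) of the 764 marked on none. The corresponding shares for the shorter regions were 39.0% and 13.4%. Over all long islands the share was 17.7% and over all shorter regions 17.6%, although the median gap to the nearest region was 37834 bp for long islands and 25672 bp for shorter ones. By chromosome, long islands made up from 6.23% (chromosome 1) to 12.8% (chromosome 12) of the regions. The share marked at 7 weeks ran from 21.3% of 61 islands on chromosome 17 to 52.9% of 51 on chromosome 14.

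The comparison of untreated mice at 23 and 7 weeks asks whether the mark differed with age. No long island was higher or lower by at least 1 with the higher of its levels at 1 or more, and of all regions 0.0657% were higher and 0 were lower by the same rule. The differences of long islands ran from -0.66 to 0.75, with a median of 0.08. Of the 489 islands marked at either age 480 were higher at 23 weeks, with a median difference of 0.31. Among all regions 3318 of 3518 were, with a median of 0.34. Every long island marked at 7 weeks was also marked at 23 weeks, so the 489 were in effect picked by their 23-week level. That favours a higher value at 23 weeks. But after scaling to a common range the 465 islands marked at either age had a median of -0.12, with 104 of them higher at 23 weeks. Among all regions 1137 of 3184 were then higher, with a median of -0.09. After scaling, too, no long island was called higher or lower, against 0 and 0.0584% of all regions. The direction for marked islands as a class thus followed the scaling. Because scaling would also reduce a real difference shared by the marked regions, it does not tell which direction holds.

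The largest differences of single islands between 23 and 7 weeks ran in both directions, and none of them met the rule. The largest positive difference without scaling was in chr3:93528964-93531113 (17 probes), which went from 1.08 ± 0.65 to 1.92 ± 0.66, by 0.75, in a difference in which no probe was lower, and of 0.38 after scaling. Its level after DSS was 1.00 ± 0.45, close to that at 7 weeks. chr4:124383707-124385177 (12 probes) went from 1.73 ± 0.96 to 2.38 ± 0.81, a difference of 0.72 that was 0.08 after scaling. chr4:140749462-140751271 (13 probes) was unmarked and went from -1.30 ± 0.88 to -0.61 ± 0.55, a difference of 0.69 that was 0.84 after scaling, then the largest. The largest negative difference without scaling was in chr4:41686055-41688152 (18 probes), from 0.67 ± 0.50 at 7 weeks to -0.21 ± 0.40 at 23 weeks, with -0.26 ± 0.33 after DSS. All 18 of its probes were lower at 23 weeks, the difference of -0.66 was -0.69 after scaling, and both pools of 23-week-old mice had the lower value. After scaling the largest negative difference, -0.999, was in chr5:140160346-140161853. chr4:150974401-150976158 (14 probes) went from 0.82 ± 0.58 to 0.30 ± 0.77, with 0.20 ± 0.59 after DSS. chr11:94026345-94028256 (14 probes) had -0.54 ± 1.53 and -1.72 ± 2.27, but its median difference per probe was -0.55 (-0.41 after scaling), with 10 of 14 probes lower and 4 probes not well above background at 23 weeks.

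The comparison of DSS with untreated mice at 23 weeks asks whether past colitis left a difference in the mark, and it shares its untreated array with the comparison by age. By the same rule 41 long islands (3.27%) were lower after DSS and none was higher, against 3.30% and 0.0073% of all regions, so that long islands were called lower at the rate of the whole array. They made up 8.38% of the 489 long islands marked in the untreated mice, against 13.7% of the marked shorter regions. These shares are not like for like, because the level of a shorter region rests on fewer probes. The median difference of the marked regions was -0.77 in long islands and -0.76 in shorter regions. The 41 islands lay on 18 chromosomes and had median levels of 1.73, 2.10 and 1.00, and 39 of them were lower in every usable probe. Of the 41 islands 39 were marked at 7 weeks and 20 were still marked after DSS. The shift was general: 488 of the 489 marked islands were lower after DSS, with a median difference of -0.77. It was alike over the whole array. Of the 3502 regions of at least 3 probes marked in either group, 24 were higher after DSS, and the median difference was -0.76. The 489 islands were picked by their level on the untreated array that is subtracted, which favours a lower value after DSS.

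Scaling removed most of these calls. It sets every array to the same spread, to which the marked probes contribute. A real change shared by the marked regions would therefore be reduced as well. This design cannot tell such a change from a difference in the spread of an array. With a common range the 463 long islands marked in either group had a median difference of 0.00, and 3 islands were called lower and 1 higher, against 0.153% and 0.0876% of all regions. The 3 islands were among the 41. After scaling, 33 of the 41 were still below 0, with a median of -0.30. Within islands marked on all 3 arrays the difference between DSS and untreated mice was alike at the edge (-0.77) and in the centre (-0.78), and the same held for 23 against 7 weeks (0.31 and 0.29).

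The islands that were lower after DSS with and without scaling lay near the median probe of the array in the DSS pool. They did not hold under every normalisation: with loess no long island was called lower, and with normexp only 2 were. chr10:126567844-126569164 (12 probes) had 1.41 ± 0.82, 2.03 ± 0.72 and 0.40 ± 0.56. The difference from untreated mice of the same age was -1.68 ± 0.58, with all 12 probes lower, and -1.05 after scaling. chr4:152325359-152327208 (15 probes) had 1.22 ± 0.87, 1.87 ± 0.70 and 0.16 ± 0.46, a difference of -1.29 ± 0.82 with 14 probes lower, and of -1.04 after scaling. chr14:115808279-115809932 (15 probes) had 1.48 ± 0.99, 1.56 ± 0.79 and 0.22 ± 0.98, a difference of -1.34 ± 0.69 with 13 probes lower, and of -1.03 after scaling. In all 3 islands both untreated pools were above 1 and the DSS pool was at 0.40 or below. chr12:27927488-27929786 (19 probes), with the second largest difference before scaling, had 1.28 ± 0.99, 1.76 ± 0.72 and 0.39 ± 0.54. All of its 19 probes were lower, and its difference of -1.36 ± 0.34 was -0.74 after scaling.

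A single long island was called higher after DSS, and only after scaling. chr14:57029021-57030998 (17 probes) had 0.20 ± 0.79, -0.03 ± 0.68 and 0.90 ± 0.49, and the last value is below the threshold of 1 without scaling. The difference from untreated mice at 23 weeks was 1.06 ± 0.83, and 1.35 after scaling, although 5 of its 17 probes were lower. Its middle probes had 0.32, -0.03 and 1.07. The next islands in this direction stayed unmarked. chr6:52182276-52183810 (13 probes) had -1.44 ± 0.90, -2.04 ± 0.86 and -0.77 ± 0.46, and chr9:94346414-94348417 (14 probes) had -0.94 ± 0.77, -1.04 ± 1.14 and -0.11 ± 0.77, with 5 probes of the latter not well above background in untreated mice at 23 weeks.

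The DSS pool and the 7-week pool differ in age and treatment together, and their comparison shares an array with each of those above. It gave 5 lower long islands (0.399%) and none higher, against 0.621% and 0.0073% of all regions. They were chr5:140160346-140161853 and chr10:126567844-126569164, already described, and chr17:39452641-39454741 (17 probes), chr3:45475757-45477910 (16 usable probes) and chr11:63736594-63738697 (14 usable probes). chr17:39452641-39454741 had 1.57 ± 1.30, 1.14 ± 0.91 and 0.46 ± 0.79. chr3:45475757-45477910 had 1.83 ± 1.14, 2.07 ± 0.73 and 0.68 ± 0.61, and chr11:63736594-63738697 had 1.73 ± 0.81, 2.09 ± 0.60 and 0.74 ± 0.57. After scaling none of the long islands was lower in this comparison and 1, chr14:57029021-57030998, was higher, against 0.277% and 0.0949% of all regions.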

How the data were processed

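H3K27me3 was measured on 3 arrays, 1 per group. Per the file headers, spots were quantified by the authors with Agilent Feature Extraction 10.7.3.1 (9.1 per the submitters' processing notes), with subtraction of background from both channels and a linear factor per dye, which gave the processed intensity. The deposited log10 ratio equals red over green of these intensities. The deposited table of the whole series holds a linear ratio per probe, and its making is not given in the sources used. The log2 ratio of processed red over processed green was centred on each array's median of positioned probes. Control spots and 583 autosomal probes with a spot outlier mark on any array were left out (574 of them from untreated mice at 23 weeks, 132 in long islands), as were 442 probes without position, 50 on unplaced sequence and 2660 on chromosome X. In 79 probes the end preceded the start, and the lower value was taken as the start. Probes near background were kept. No loess or quantile step was used.

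Median background-subtracted intensities were 475, 120 and 268 for the immunoprecipitate and 537, 217 and 492 for the input in the order 7 weeks, 23 weeks and DSS, and no probe was saturated. Slides and scan days differed for all arrays and cannot be told apart from the groups, and the number of arrays limits the precision. A difference between arrays is the median over an island of its probes' differences. It was called at 1 or more in size, with the higher array at 1 or more. The scripts were tested on simulated data. Islands were named by a fixed rule: the 5 with most probes, the 4 highest and 4 lowest, the 4 with the largest contrast each way between edge and centre and the 4 between ends, the 3 with the largest difference each way in both main comparisons, and counts of 5 or fewer. The islands, lists and rules were chosen with earlier results of these data known. Gene lists and marker genes were not analysed here, since no probe has a gene name and no probe sequence was at hand. Alternatives covered scaling, background, normalisation (limma 3.58.1 in R 4.3.3), the deposited table, the joining distance, the probe minimum, edge definitions, probe length and the threshold. Python 3.11.15 with pandas 2.3.3 was used for all other steps.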

Additional observations from a re-analysis of the deposited data

How the results depend on the processing

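Marked shares are given in the order 7 weeks, 23 weeks and DSS. The excess of long islands over shorter regions kept its direction under 7 alternatives of processing, at 15 to 16.3, 14.2 to 16.0 and 8.91 to 14.9 percentage points. The shares of marked long islands moved with loess (29.0%, 29.1% and 20.4%), with a minimum of 10 probes (29.0%, 33.0% and 20.6%) and of 15 probes (43.6%, 47.6% and 34.2%), and with the threshold at the trough (40.7%, 42.5% and 41.7%). At 23 weeks and after DSS they moved with a common range (36.2% and 32.9%) and normexp (34.4% and 18.0%), and after DSS with the background filter (22.8%) and the deposited ratio table (29.2%). The median of edge minus centre stayed below 0 on each array under all 14 alternatives in long islands (-0.54 to -0.03, -0.39 to -0.02 and -0.38 to -0.03) and all 12 in shorter regions. The values nearest 0 were those with loess on each array.

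The share of long islands with the edge above the centre became 47.8%, 48.1% and 47.1% with loess, 33.2%, 36.9% and 35.4% with the outermost probe against the middle ones, and 33.6%, 39.1% and 36.5% with the outermost 2 probes on each side against all others. At 7 weeks and after DSS it became 44.6% and 45.3% without the outermost probes and 44.1% and 44.9% with the probe length trend subtracted. It was 44.7% and 48.2% at 7 and 23 weeks with a minimum of 15 probes, and at 23 weeks 42.3% with a minimum of 10 and 40.4% with the mean of probes. In shorter regions it became 40.1%, 43.3% and 40.7% with the background filter, 39.0%, 45% and 41.3% with normexp, 47.2%, 48.4% and 47.2% with loess, 34.9%, 38.8% and 35.9% with the outermost probe, 34.3%, 37.8% and 35.5% with the outermost 2, 44.1%, 45.4% and 44.0% without the outermost, and 44.8%, 48.5% and 44.7% with the length trend subtracted. It was 38.1% and 39.1% at 7 weeks and after DSS when joined over 300 bp, 35.9% and 40.1% at 7 and 23 weeks with the mean of probes, and 36.1% at 7 weeks with the deposited table.

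Long islands lower after DSS than in untreated mice at 23 weeks numbered 21 with the background filter, 3 with a common range, 2 with normexp, 0 with loess, 85 in the deposited table, and 75 and 22 with minimums of 10 and 15 probes. A common range gave 1 higher. Lower after DSS than at 7 weeks were 0 with a common range or loess, 8 with normexp, 10 in the deposited table, 8 and 3 with minimums of 10 and 15 probes, and 10 with the length trend subtracted, and a common range gave 1 higher. Higher at 23 than at 7 weeks was 1 with a minimum of 10 probes. Apart from the changed probe minimums and the construction of scaling, the cause was not tested. Subtracting the trend on base composition was not run, since no probe sequence was at hand. The trough threshold, the length trend and the omission of the outermost probes were added after the data were seen. No paired analysis was possible because each group has 1 array. The background of the immunoprecipitate limits how low a level can be read.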

Other observations

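Long islands on chromosome X lay outside the autosomal rule. The 30 such islands had median levels of 0.12 in the younger mice, 0.41 in untreated mice of 23 weeks and 0.10 with DSS, and 8, 10 and 2 of them were marked (26.7%, 33.3% and 6.67%). Of the 360 shorter regions of this chromosome 13.9%, 22.2% and 7.78% were marked. After DSS the share of long islands rests on 2 of 30, with an interval of 1.85% to 21.3%. It therefore does not show whether they were marked more often than the shorter regions. The median of edge minus centre was 0.08, 0.10 and 0.16 in the long islands and -0.27, -0.15 and -0.20 in the shorter regions.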
